A study of Mus musculus with 2 samples.

Results

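The genes described here are 10 that report on macrophages and on the receptor through which these cells are kept alive. They are Csf1r, the receptor for colony-stimulating factor 1, its ligand genes Csf1 and Il34, the transcription factor gene Spi1, and the macrophage-expressed genes Adgre1, Cd68, Lyz2, Cx3cr1, Fcgr1 and Mertk. They were taken by symbol from the deposited table, and all 10 were found among its 33640 genes. The table holds mitral valve RNA of mice at 5 months of age, 1 library for mice heterozygous for the C1039G allele of Fbn1 (Fbn1C1039G/+) and 1 for wild-type (WT) mice. Each library came from a pool of 8 hearts of male and female animals. Fbn1 encodes fibrillin-1, a protein of extracellular microfibrils, and the allele is used in mice as a model of Marfan syndrome. No other allele or treatment is given in the labels for either pool. The comparison asks which genes stand at another level in the mutant valve.

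With 1 library per genotype there was no replicate error, no test was possible, and every difference is one between these libraries. Values are TPM, a transcript abundance scaled for transcript length and for the library total. A gene is called measured when its TPM, averaged over both pools, is 1 or more, which 17004 genes were. Differences are in log2(TPM + 1), Fbn1C1039G/+ minus WT. Whole valve tissue was sequenced, so more cells of a type and more RNA per cell cannot be told apart. The depth of the libraries is unknown, since TPM keeps no record of it.

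Macrophages take up dying cells, microbes and matrix debris, and they populate the valve leaflets of the healthy heart. Their survival depends on CSF1R, a receptor tyrosine kinase that both CSF1 and IL34 can activate. CSF1 is made by fibroblasts and endothelial cells in many organs, while IL34 is best known from skin and brain. PU.1, the product of Spi1, is the transcription factor that sets up the myeloid programme and acts on the Csf1r gene itself, but neutrophils, mast cells, dendritic cells and B cells carry it too.

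Of the 10 genes, Spi1 and Fcgr1 stood furthest above WT in the mutant pool, and the receptor gene Csf1r, its ligand gene Csf1 and the chemokine receptor gene Cx3cr1 were almost level. Lyz2, Cd68, Adgre1, Mertk and Il34 lay in between, all with more TPM in the mutant pool. The mutant value was the higher for 9 of the 10 genes, as it was for 64.9% of the 17004 measured genes. After centring on the median or quantile normalization it was the higher for 7 of the 10. The share of all genes was not computed on those scales, so that count has no background beside it. A difference of at least 1.5-fold, on the log2(TPM + 1) scale, was reached upward by 2 of the 10, Spi1 and Fcgr1, against 15.4% of all measured genes, and downward by 0 of the 10, against 4.73%. These shares stand for 2613 genes that were higher and 805 that were lower, and quantile normalization gave 1503 and 1409. No member was 2-fold higher or lower, against 4.81% and 1.72% of all genes (818 and 293 genes, or 540 and 462 after quantile normalization). The median difference of the 10 was 0.26, and that of all measured genes was 0.14. Counts of 10 genes are small, and the share past 1.5-fold was near that of the whole table.

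**Figure D1:**
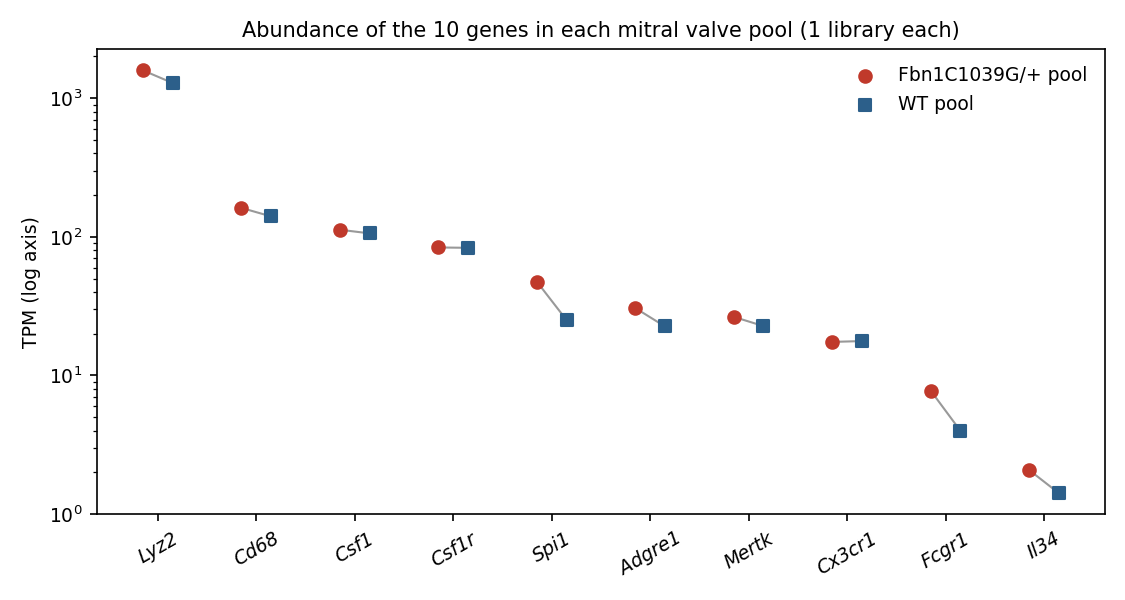
TPM of the 10 genes on a log axis in the Fbn1C1039G/+ pool (red circles) and the WT pool (blue squares), 1 library each, joined by a line for each gene and ordered by level. Lyz2 stands far above the others and Il34 lowest, and the steepest lines are those of Spi1 (47.3 against 25.1 TPM) and Fcgr1 (7.72 against 3.98 TPM).

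The receptor gene Csf1r was at 83.8 TPM in the mutant pool and 83.3 TPM in the WT pool, a ratio of 1.01. It ranked high in both libraries, above 89.2% of measured genes in the mutant pool and above 90.3% in the WT pool. The values differed by 0.513 TPM. Most genes were slightly higher in the mutant pool, so relative to them Csf1r was slightly lower: its difference of 0.01 became −0.10 when differences were centred on the median of genes averaging 10 TPM or more.

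Of the ligand genes, Csf1 was at 112 TPM in the mutant pool and 106 TPM in the WT pool, a difference of 0.09, which became −0.03 after centring. Csf1 therefore stood slightly above its receptor in both pools, at 1.34 times the TPM of Csf1r in the mutant pool and 1.27 times in the WT pool. Il34, the other ligand gene, was at 2.07 TPM in the mutant pool and 1.41 TPM in the WT pool. This was 1.84% of the Csf1 level in the mutant pool and 1.33% in the WT pool, so Csf1 made up nearly all ligand transcript of this receptor in both. The difference of Il34 was 0.35. Among genes averaging 1 to 5 TPM, the central 95% of differences ran from −1.44 to 1.93, a range in which that of Il34 lies near the middle. Of the other reported IL34 receptors, Sdc1, which encodes the proteoglycan syndecan-1, was at 18.5 TPM in the mutant pool and 18.4 TPM in the WT pool. Ptprz1, a receptor phosphatase gene, was at 2.78 TPM in the mutant pool and 1.64 TPM in the WT pool.

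Spi1 was at 47.3 TPM in the mutant pool and 25.1 TPM in the WT pool, 1.89 times as much, with a difference of 0.89. It was the largest difference of the 10 under each setting that was tried, except with a pseudocount of 0.1, where that of Fcgr1 was larger. For genes averaging 20 to 50 TPM the central 95% of differences ran from −0.53 to 0.91, and 10.2% of them were at least 1.5-fold higher in the mutant pool. Spi1 lies just inside the upper end of that range. Relative to Csf1r, Spi1 stood at 0.565 in the mutant pool and 0.301 in the WT pool, a ratio that does not depend on how either library was scaled.

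Other transcription factors of macrophages differed in both directions. Of 16 listed, all measured, 10 were higher in mutant valves and 6 lower, with a median of 0.19. At least 1.5-fold higher were 2 of the 16, and 1 was at least 1.5-fold lower. Over all measured genes, 64.9% were higher, 15.4% at least 1.5-fold, and 4.73% were at least 1.5-fold lower, with a median of 0.14. Past 1.5-fold were Irf5, an interferon regulatory factor gene (25.9 TPM in the mutant pool and 16.2 TPM in the WT pool), Tfec, on the higher side, and Nr1h3, the gene of the oxysterol receptor LXR-alpha, which was lower (5.32 TPM in the mutant pool and 9.35 TPM in the WT pool). Tfec, a factor of the MITF family, was at 4.13 TPM in the mutant pool and 2.35 TPM in the WT pool. The most abundant were Zeb2, at 221 TPM in the mutant pool and 175 TPM in the WT pool, and Klf4, at 82.1 TPM in the mutant pool and 80.7 TPM in the WT pool. Both are also expressed by other cell types, Klf4 in endothelium among them.

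Lyz2, which encodes the lysozyme of macrophages and also of monocytes and neutrophils, was the most abundant of the 10. It was at 1587 TPM in the mutant pool and 1288 TPM in the WT pool, a difference of 0.30. Its neighbour Lyz1 was at 10.5 TPM in the mutant pool and 3.92 TPM in the WT pool. The pair is hard to separate by sequence. The first 150 bases of the coding sequences are shown because they hold most of what tells them apart: capitals mark the 14 bases in this stretch that differ between them (transcripts of GENCODE release M21).
Lyz2: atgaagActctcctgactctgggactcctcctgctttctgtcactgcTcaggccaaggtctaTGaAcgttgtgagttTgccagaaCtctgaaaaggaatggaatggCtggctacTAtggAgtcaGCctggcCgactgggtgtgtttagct
Lyz1: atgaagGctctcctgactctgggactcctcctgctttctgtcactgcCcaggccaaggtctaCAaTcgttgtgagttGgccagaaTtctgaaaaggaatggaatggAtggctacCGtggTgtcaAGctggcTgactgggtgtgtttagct
Over the whole coding sequence of 447 bases the pair differed at 22 positions, an identity of 95.1%, and the longest identical run was 118 bases. Of the 1286 stretches of 31 bases in the Lyz2 transcript, 422 (32.8%) also occurred in Lyz1. Reads from these stretches can be divided between the genes only by an estimate. Lyz1 held 0.659% of the TPM of Lyz2 in the mutant pool and 0.304% in the WT pool, so the sum of the pair is close to that of Lyz2 alone, while Lyz1 itself is uncertain.

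The other members had little of this ambiguity when transcripts were compared as transcribed. Reverse complements were not searched, so stretches shared with transcripts of the opposite strand were not counted. Csf1, Spi1, Adgre1, Cd68, Fcgr1 and Mertk shared 0 such stretches with any other gene of the annotation, and Csf1r, Il34 and Cx3cr1 shared at most 1.75% of theirs. Exons of Csf1r overlap those of Hmgxb3 on the opposite strand, and the labels do not say whether reads were counted by strand. Hmgxb3 was at 7.56 TPM in the mutant pool and 5.81 TPM in the WT pool, well under Csf1r. Exons of Il34 and Cx3cr1 also overlap predicted genes of the opposite strand, and unless reads were counted by strand, those of either gene cannot be told apart there.

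Cd68 encodes a glycoprotein of the lysosomal membrane. It was at 162 TPM in the mutant pool and 140.4 TPM in the WT pool, a difference of 0.20. Its relatives Lamp1 and Lamp2, which all cells use in their lysosomes, were at 448 and 474 TPM in the mutant pool and at 453 and 497 TPM in the WT pool. Cd68 was thus slightly higher in the mutant pool while these lysosomal genes were slightly lower. Adgre1, which encodes the adhesion receptor recognised by the F4/80 antibody, was at 30.6 TPM in the mutant pool and 22.5 TPM in the WT pool, a difference of 0.42. Its relatives were Adgre5, found on most leukocytes, at 235 TPM in the mutant pool and 199 TPM in the WT pool, and Adgre4, at 1.72 TPM in the mutant pool and 0.959 TPM in the WT pool.

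Cx3cr1, the receptor for fractalkine that marks patrolling monocytes and many tissue macrophages, was at 17.5 TPM in the mutant pool and 17.7 TPM in the WT pool. With a difference of −0.02 it was the only one of the 10 with less TPM in the mutant pool as deposited, and was joined by Csf1r and Csf1 after centring. Its ligand gene Cx3cl1, expressed by endothelium, was at 41.6 TPM in the mutant pool and 29.9 TPM in the WT pool, a difference of 0.46. The ligand therefore stood at 2.38 times the receptor in the mutant pool and 1.69 times in the WT pool. Adam17 and Adam10, whose proteases release fractalkine from the cell surface, differed by 0.27 and 0.05.

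Fcgr1 encodes the high-affinity receptor for immunoglobulin G, which interferon raises in macrophages and monocytes. It was at 7.72 TPM in the mutant pool and 3.98 TPM in the WT pool, 1.94 times as much, with a difference of 0.81. Among genes averaging 5 to 20 TPM, 16.2% were at least 1.5-fold higher and the central 95% ran from −0.76 to 1.27, so that Fcgr1 lies inside that range. With a pseudocount of 5 its difference was 0.50, under the 1.5-fold line. The other activating receptor genes were also higher. Fcgr4 was at 5.28 TPM in the mutant pool and 1.97 TPM in the WT pool, and Fcgr3 at 57.95 TPM in the mutant pool and 45.2 TPM in the WT pool. The inhibitory receptor gene Fcgr2b was at 52.1 TPM in the mutant pool and 36.3 TPM in the WT pool, so it was higher as well. Fcgr2b and Fcgr3 are close in sequence over their outer domains, and their reads may be divided by an estimate. Fcer1g, whose product is the signalling chain that the activating receptors share, was at 354 TPM in the mutant pool and 265 TPM in the WT pool. Fcgrt, the widely expressed gene of the neonatal Fc receptor, was at 64.8 TPM in the mutant pool and 65.9 TPM in the WT pool. Of the 5 genes listed beside Fcgr1, 4 were higher in mutant valves, and Fcgr4 alone was past 2-fold. Over all measured genes, 64.9% were higher and 4.81% at least 2-fold higher.

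Mertk encodes a receptor with which macrophages engulf dying cells. It was at 26.4 TPM in the mutant pool and 22.7 TPM in the WT pool, a difference of 0.21. Its relative Axl, which fibroblasts and endothelium express as well, was the most abundant of the family, at 239 TPM in the mutant pool and 196 TPM in the WT pool. Mertk stood at 11.1% of the Axl level in the mutant pool and 11.6% in the WT pool. Tyro3, the remaining family member, was at 9.62 TPM in the mutant pool and 3.30 TPM in the WT pool, a difference of 1.30. The bridging ligand gene Gas6 had less TPM in the mutant pool, at 263 TPM against 309.8 TPM in the WT pool. Pros1, which encodes protein S, the other bridging ligand, was at 64.6 TPM in the mutant pool and 60.8 TPM in the WT pool. Lrp1, a large uptake receptor of many cell types, was level, at 238 TPM in the mutant pool and 235 TPM in the WT pool, while Elmo1, whose product drives engulfment, was at 101 TPM in the mutant pool and 74.8 TPM in the WT pool. In this list of uptake genes, which leaves out Mertk, 11 of 14 measured genes were higher in mutant valves, with a median of 0.15, and Tyro3 alone was past 1.5-fold. Over all measured genes, 64.9% were higher and 15.4% at least 1.5-fold higher, with a median of 0.14.

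**Figure D2:**
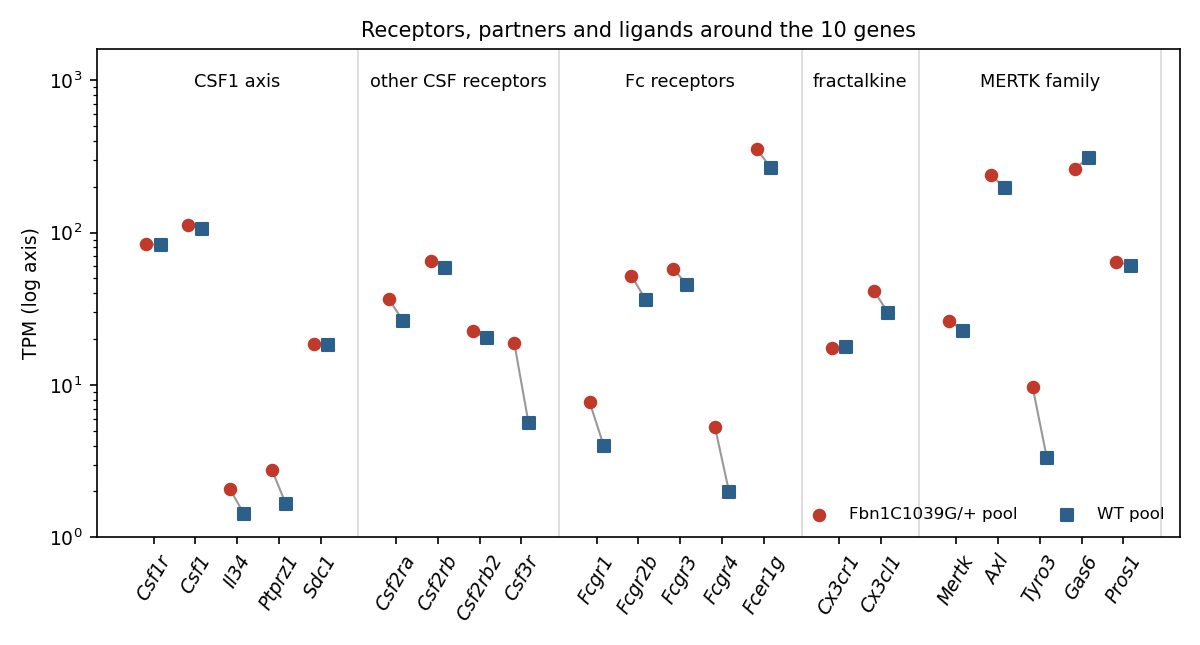
TPM on a log axis of members and their receptors, partners and ligands in the Fbn1C1039G/+ pool (red circles) and the WT pool (blue squares), 1 library each. Csf1r and Csf1 are level between the pools, Csf3r, Fcgr1, Fcgr4 and Tyro3 have the steepest lines, and Gas6 (263 against 309.8 TPM) slopes the other way.

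The 10 genes kept nearly the same order of level in both pools, from Lyz2 through Cd68, Csf1, Csf1r and Spi1 down to Cx3cr1, Fcgr1 and Il34. Adgre1 and Mertk exchanged places, with Adgre1 at 30.6 and Mertk at 26.4 TPM in the mutant pool, against 22.5 and 22.7 TPM in the WT pool. Without replicates the order of such close neighbours cannot be judged. Relative to Csf1r, Lyz2 stood at 18.9 in the mutant pool and 15.5 in the WT pool, Cd68 at 1.93 in the mutant pool and 1.69 in the WT pool, and Fcgr1 at 0.0922 in the mutant pool and 0.0478 in the WT pool. The balance among the 10 genes therefore differed between the libraries mainly in Spi1 and Fcgr1.

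**Figure D3:**
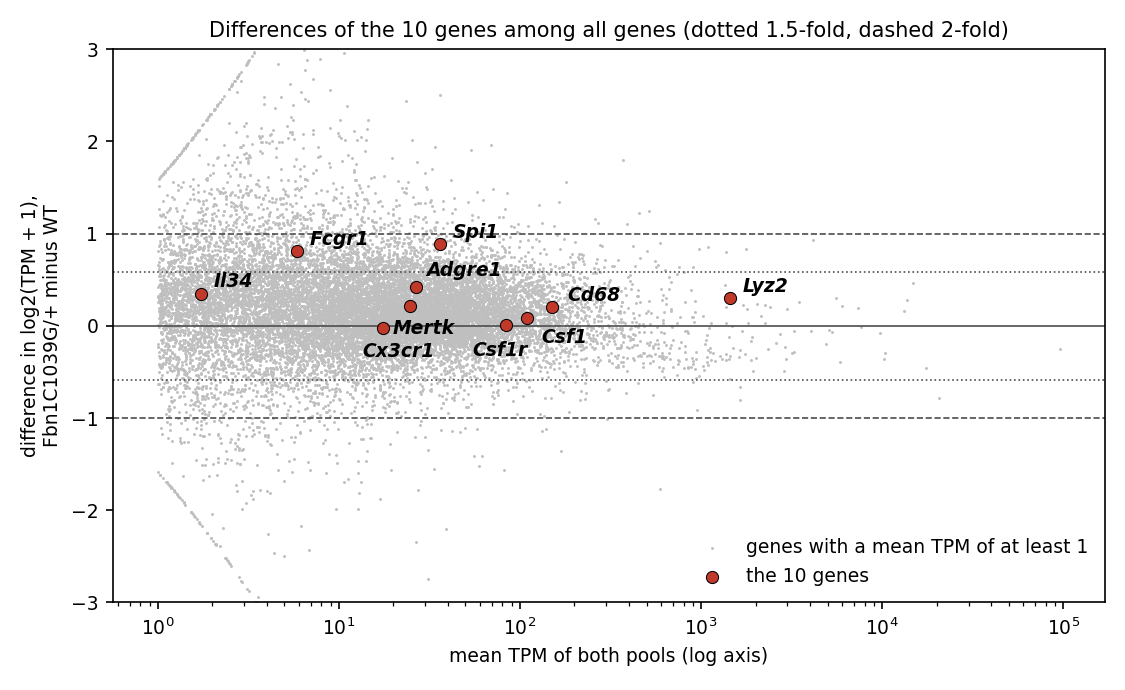
Difference in log2(TPM + 1), Fbn1C1039G/+ minus WT, against mean TPM on a log axis for the 10 genes (red) and the other measured genes (grey), with 58 genes beyond the vertical axis limits of 3 in size. Spi1 (0.89) and Fcgr1 (0.81) lie above the dotted 1.5-fold line, and Csf1r, Csf1 and Cx3cr1 lie close to the line at 0.

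Downstream of the receptor, 3 genes of blood-cell enzymes were past 2-fold, namely Fgr, Ptpn6 and Inpp5d. Of 23 adaptors, kinases and phosphatases, 16 were higher in mutant valves, 6 of them at least 1.5-fold, and 0 were 1.5-fold lower, with a median of 0.36. Over all measured genes, 64.9% were higher, 15.4% at least 1.5-fold and 4.81% at least 2-fold, with a median of 0.14. Fgr, a kinase of the SRC family in neutrophils, monocytes and macrophages, was at 7.19 TPM in the mutant pool and 0.541 TPM in the WT pool. Fgr therefore counted as measured, and so in these counts, only through the mutant pool. The phosphatase gene Ptpn6, encoding SHP-1, was at 46.9 TPM in the mutant pool and 17.7 TPM in the WT pool, a difference of 1.36. Inpp5d, encoding the lipid phosphatase SHIP-1, was at 29.2 TPM in the mutant pool and 13.8 TPM in the WT pool. Both phosphatases restrain signalling by many receptors of blood cells. The abundant Tyrobp, whose product DAP12 is an adaptor of macrophages and natural killer cells, was at 292 TPM in the mutant pool and 258 TPM in the WT pool. Dab2, an endocytic adaptor of macrophages and other cells, was at 351 TPM in the mutant pool and 259 TPM in the WT pool.

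Kit and the PDGF receptors belong to the same kinase class as CSF1R. Kit, the receptor of stem cell factor, which is also a mast cell marker, was at 14.3 TPM in the mutant pool and 4.23 TPM in the WT pool. Its ligand gene Kitl was at 48.1 TPM in the mutant pool and 34.1 TPM in the WT pool. Pdgfrb, of pericytes and fibroblasts, was at 51.2 TPM in the mutant pool and 70.8 TPM in the WT pool, and Pdgfra, of fibroblasts, at 93.5 TPM in the mutant pool and 88.2 TPM in the WT pool. In this list 8 of 10 receptors and ligands were higher in mutant valves, and Kit alone was past 1.5-fold. Over all measured genes, 64.9% were higher and 15.4% at least 1.5-fold higher.

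Among receptors of the other colony-stimulating factors, 1 of 5 measured genes was at least 1.5-fold higher, against 15.4% of all measured genes. Csf3r, the receptor of the neutrophil growth factor G-CSF, was at 18.8 TPM in the mutant pool and 5.63 TPM in the WT pool. Csf2ra, the specific chain of the GM-CSF receptor, was at 36.5 TPM in the mutant pool and 26.3 TPM in the WT pool, a difference of 0.46. The shared chain Csf2rb was at 64.99 TPM in the mutant pool and 58.9 TPM in the WT pool, and its close copy Csf2rb2, whose reads may be divided from it by an estimate, at 22.5 TPM in the mutant pool and 20.3 TPM in the WT pool. Of the ligand genes, Csf3 was listed at 0 in both pools, and Csf2 was at 0.872 TPM in the mutant pool and listed at 0 in the WT pool.

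Other pan-macrophage and myeloid genes ranged from level to more than 2-fold higher in mutant valves. Of 23, all measured, 20 were higher in mutant valves, 5 of them at least 1.5-fold, and 0 were 1.5-fold lower, with a median of 0.33 beside 0.14 for all genes. Over all measured genes, 64.9% were higher, 15.4% at least 1.5-fold, and 4.73% were at least 1.5-fold lower. Ptprc, which encodes CD45 and is carried by all white blood cells, was at 183 TPM in the mutant pool and 73.2 TPM in the WT pool, a difference of 1.31. Itgam, the CD11b integrin gene of monocytes, neutrophils and some macrophages, was at 40.1 TPM in the mutant pool and 21.2 TPM in the WT pool, close to the ratio of Spi1. The complement genes C1qb and C1qc and the lysosomal membrane gene Laptm5 differed by 0.14, 0.16 and 0.33. Relative to Ptprc, Csf1r stood at 0.459 in the mutant pool and 1.14 in the WT pool, and Spi1 at 0.259 in the mutant pool and 0.343 in the WT pool.

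Markers of several other cells that carry Spi1, Fcgr1 or Lyz2 differed in the same libraries. Their counts stand beside 64.9% of all measured genes that were higher, 15.4% at least 1.5-fold and 4.81% at least 2-fold. The 13 monocyte markers summed to 368 TPM in the mutant pool and 225 TPM in the WT pool. Of their 12 measured genes, 10 were at least 1.5-fold higher and 1 was lower, with a median of 1.13. Plac8, Chil3 and Treml4 counted as measured only through the mutant pool, with 0, 0.121 and 0.562 TPM in the WT pool. Cd300e, the gene left out, was lower, at 0.0494 TPM in the mutant pool and 0.209 TPM in the WT pool. The median was 0.69 with a pseudocount of 5, 1.08 with no filter and 0.88 among genes averaging 5 TPM or more. Their most abundant gene, Ace, of non-classical monocytes and also of endothelium, was at 227 TPM in the mutant pool and 142 TPM in the WT pool. Ace thus made up most of the sum in both pools. Nr4a1, a factor of non-classical monocytes and an early response gene, was the lower one of the measured genes, at 20.8 TPM in the mutant pool and 35.0 TPM in the WT pool. Ccr2, the receptor of classical monocytes, stood at 2.01 times the TPM of Cx3cr1 in the mutant pool and 0.665 times in the WT pool. The 13 neutrophil markers summed to 107 TPM in the mutant pool and 19.5 TPM in the WT pool. Of their 7 measured genes 5 were higher and 2 lower in mutant valves, and 4 were past 2-fold. S100a9 (48.0 against 2.34 TPM) and S100a8 (16.2 against 0.369 TPM) made up most of the sum in the mutant pool. S100a8 counted as measured only through the mutant pool, and Camp only through the WT pool. Cxcr2 was at 18.0 TPM in the mutant pool and 6.43 TPM in the WT pool. Genes under the filter that were higher in the mutant pool were Mmp9 (1.63 against 0.274 TPM), Mmp8 (0.873 against 0.0703 TPM) and Ngp (0.286 against 0 TPM). The granule gene Camp was at 0.949 TPM in the mutant pool and 1.49 TPM in the WT pool, and Retnlg at 1.13 TPM in the mutant pool and 1.21 TPM in the WT pool. Ltf was listed at 0 in the mutant pool and was at 0.671 TPM in the WT pool. Of the same list, Ly6g and Elane were listed at 0 in both pools. Of 6 mast cell markers, all measured and all higher in mutant valves, 4 were past 1.5-fold, and their sum was 85.4 TPM in the mutant pool and 55.5 TPM in the WT pool. The 9 dendritic cell markers summed to 77.8 TPM in the mutant pool and 50.6 TPM in the WT pool, with Itgax, the CD11c integrin gene, at 11.2 TPM in the mutant pool and 4.92 TPM in the WT pool. Resident-type macrophage markers differed less: 8 of 9 were higher in mutant valves, 0 were past 1.5-fold on the log2(TPM + 1) scale, the median was 0.16, and the sum was 628 TPM in the mutant pool and 512 TPM in the WT pool. Of these markers Cd163, the haemoglobin scavenger receptor gene, was just under that line with a difference of 0.58, at 18.5 TPM in the mutant pool and 12.0 TPM in the WT pool, and Pf4, which platelets carry as well, at 213 TPM in the mutant pool and 153 TPM in the WT pool. The part of these cell types in the values of Spi1, Fcgr1 and Lyz2 was not tested.

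**Figure D4:**
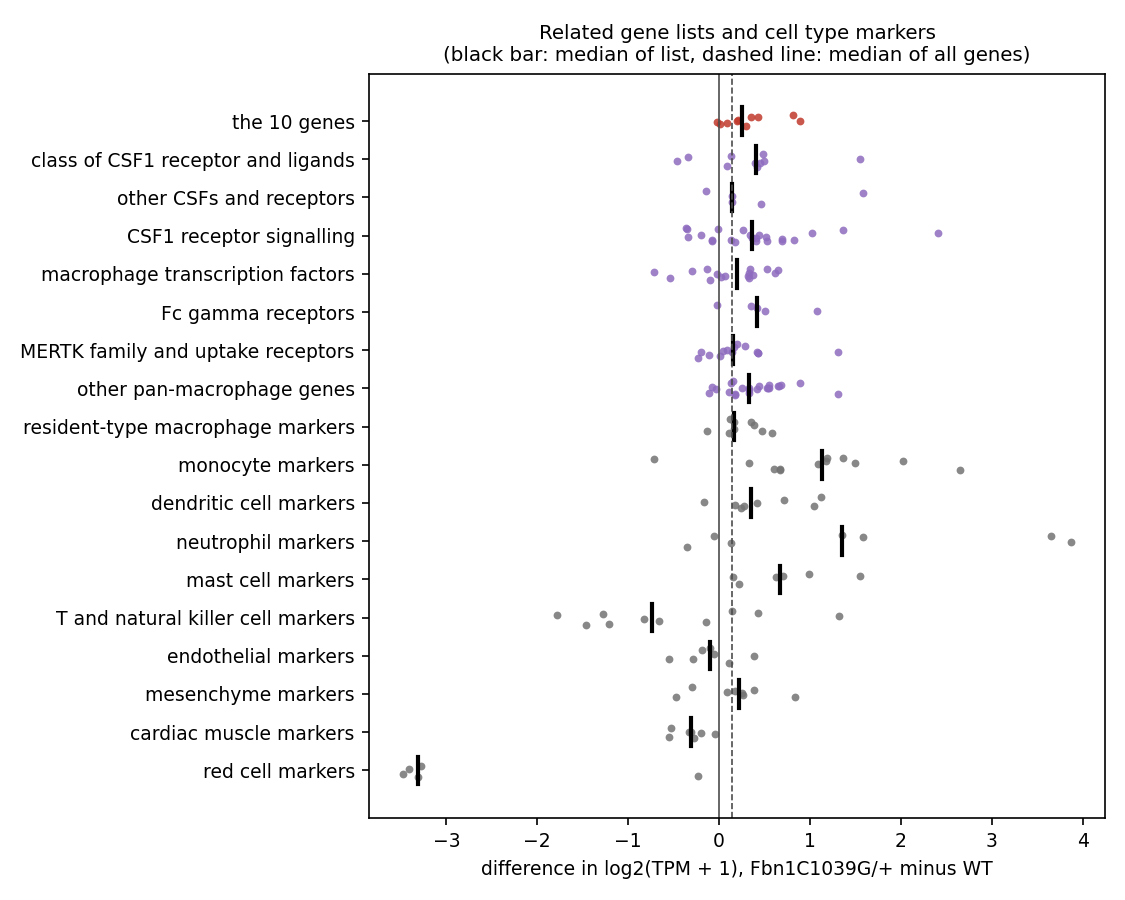
Difference in log2(TPM + 1), Fbn1C1039G/+ minus WT, of each measured gene in the 10 genes (red), related lists (purple) and cell type markers (grey). Black bars are list medians and the dashed line is the median of all genes, 0.14. The median was 0.26 for the 10 genes, 0.16 for resident-type macrophage markers, 1.13 for the 12 measured monocyte markers and 1.36 for the 7 measured of 13 neutrophil markers (0.36 for all 13).

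The libraries also differed in other tissue. Red cell markers summed to 687 TPM in the mutant pool and 6801 TPM in the WT pool, and cardiac muscle markers to 1541 TPM in the mutant pool and 2065 TPM in the WT pool. T and natural killer cell markers summed to 66.4 TPM in the mutant pool and 87.9 TPM in the WT pool, with Ncr1 listed at 0 in both. Of their 10 measured genes 6 were at least 1.5-fold lower and 1 was higher by that much, with a median of −0.74. Over all measured genes these shares were 4.73% and 15.4%. The T cell receptor chain gene Cd3e was at 6.35 TPM in the mutant pool and 19.2 TPM in the WT pool, whereas Cd3d was at 26.9 TPM in the mutant pool and 19.7 TPM in the WT pool and the natural killer cell gene Klrd1 at 12.0 TPM in the mutant pool and 4.21 TPM in the WT pool. The sum of 5 B cell markers was 4.32 TPM in the mutant pool and 3.58 TPM in the WT pool. The labelled tissue carried its mesenchymal markers at high levels in both pools, with 6 of 8 higher in mutant valves and a median difference of 0.21. For all measured genes the share that was higher was 64.9% and the median 0.14. Dcn was at 9304 TPM in the mutant pool and 11409 TPM in the WT pool, and Postn at 2263 TPM in the mutant pool and 1269 TPM in the WT pool. Endothelial markers had a median difference of −0.10. The sum of 4 Y-linked genes was 143 TPM in the mutant pool and 101 TPM in the WT pool. The part of blood, muscle or sex in the members' values was not tested.

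Upstream sequence was matched by symbol for 6 of the 10 genes, namely Csf1, Cd68, Lyz2, Cx3cr1, Fcgr1 and Mertk (RefSeq, GRCm38.p6). In the 250 bases before each start, both strands were searched for GAGGAA, the letters at the core of many PU.1 sites, because Spi1 was among the members that differed most. These letters were present in 2 of the 6, Fcgr1 and Cd68, and in 23.3% of all 32851 windows of this length. The 8-letter extension of the motif, with GT after it, was in 0 of the 6 and in 2.44% of all windows. Both matching windows are shown 5′ to 3′ on the gene's strand, with the match in capitals (GAGGAA, or TTCCTC where it lies on the other strand).
Fcgr1, chr3:96293970-96294219, minus strand: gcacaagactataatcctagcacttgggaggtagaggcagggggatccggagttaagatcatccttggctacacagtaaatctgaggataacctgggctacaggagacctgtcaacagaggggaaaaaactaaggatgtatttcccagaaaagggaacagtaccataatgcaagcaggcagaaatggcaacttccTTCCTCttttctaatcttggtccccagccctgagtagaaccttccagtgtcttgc
Cd68, chr11:69666171-69666420, minus strand: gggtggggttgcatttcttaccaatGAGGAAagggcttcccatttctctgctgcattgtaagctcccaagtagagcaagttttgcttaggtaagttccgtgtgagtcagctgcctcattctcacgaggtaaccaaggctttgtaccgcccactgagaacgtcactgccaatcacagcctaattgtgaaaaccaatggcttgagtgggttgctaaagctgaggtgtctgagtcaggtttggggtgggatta
The match begins 55 bases before the start in Fcgr1 and 225 bases before it in Cd68. Fcgr1 was 1.94 times and Cd68 1.15 times as high in the mutant pool, so genes with the same letters differed in their ratio, and a match is a description of these windows only.

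In the mm10 assembly, as annotated by GENCODE release M21, Spi1 (ENSMUSG00000002111.8) lies on chromosome 2 at 91082390 to 91115756 on the plus strand, and Mertk (ENSMUSG00000014361.5) on the same chromosome at 128698956 to 128802894. Csf1 (ENSMUSG00000014599.10) is on chromosome 3 at 107741048 to 107760469 and Fcgr1 (ENSMUSG00000015947.10) at 96282909 to 96293969, both on the minus strand. Lyz2 (ENSMUSG00000069516.8) is on chromosome 10 at 117277331 to 117282321, next to Lyz1 at 117287797 to 117292868. Il34 (ENSMUSG00000031750.15) lies on chromosome 8 at 110741829 to 110805924, Cx3cr1 (ENSMUSG00000052336.7) on chromosome 9 at 119901616 to 120069879, Cd68 (ENSMUSG00000018774.13) on chromosome 11 at 69664213 to 69666153, and Adgre1 (ENSMUSG00000004730.15) on chromosome 17 at 57358691 to 57483527.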

How the data were processed

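The deposited table holds 1 TPM value per gene symbol and library, per the file headers. The submitters' processing notes name Trimmomatic, HISAT2, kallisto and mm10. Their versions and roles and the gene annotation were not given in the sources used here. Per the labels' protocols, RNA was pooled from 8 hearts per genotype and amplified before library preparation, so low TPM can rest on few molecules.

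Here, log2(TPM + 1) differences, Fbn1C1039G/+ minus WT, were computed with pandas 2.3.3 and a pseudocount of 1. Differences of low genes are understated by it. Genes averaging 1 TPM or more counted as measured. A size of 1.5-fold or 2-fold is a description, not a test. The difference calculation and scalings were tested on simulated data of genes averaging 10 TPM or more. Lower genes, list counts and sequence searches were not tested in this way. Members and lists were chosen with earlier results of these data known. Named genes were the 10 members, per list the 2 most abundant genes and the 2 of largest difference among those averaging 5 TPM or more, and the Fc gamma receptor, MERTK, fractalkine, IL34 and CSF genes. Tfec, Fgr, C1qc, Hmgxb3, Plac8, Chil3, Treml4, Cd300e, Mmp8, Mmp9, Ngp, Camp, Retnlg, Ltf, Ly6g, Elane and Ncr1 are outside it and were named after their values were seen. Not all genes it takes are printed. Alternatives were other pseudocounts, filters and scalings.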

Additional observations from a re-analysis of the deposited data

How the results depend on the processing

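Of 50 recomputed member differences, 49 stayed on their side of the 1.5-fold line. With a pseudocount of 5, Fcgr1 fell under it at 0.50, which leaves 1 gene of the 10, Spi1, past it. Spi1 ran from 0.76 to 0.91 and Fcgr1 from 0.50 to 0.94 over all settings. Csf1r (−0.12 to 0.01) and Csf1 (−0.03 to 0.09) changed sign under centring and under quantile normalization, and Csf1r also when abundant gene classes were left out. The number of members with the higher value in the mutant pool was 7 under centring and under quantile normalization. The share of all genes was not computed for either. The median of the 10 ran from 0.12 under quantile normalization to 0.26.

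Counts over all genes moved with the scale. Genes at least 2-fold higher and lower numbered 1264 and 464 with a pseudocount of 0.1, 209 and 87 with 5, 540 and 462 under quantile normalization, and 360 and 103 among genes averaging 5 TPM or more. With mitochondrial, globin, ribosomal protein, Gm and Rik genes left out, 499 were 2-fold higher. Genes at least 1.5-fold higher and lower numbered 1172 and 358 with a pseudocount of 5, 1503 and 1409 under quantile normalization, and 1530 and 399 among genes averaging 5 TPM or more, and 1230 were lower with no filter. Of the list medians, mast cell markers fell under the 1.5-fold line at 0.48 (pseudocount of 5), 0.55 (centred) and 0.50 (quantile), T and natural killer cell markers at −0.45 (pseudocount of 5), neutrophil markers at 0.36 (no filter) and red cell markers at −0.29 (globin genes left out, so that Alas2 alone remained). Neutrophil markers reached 2.62 and dendritic cell markers 0.66 among genes averaging 5 TPM or more. The causes were not tested beyond the genes each setting removes. No paired analysis was possible because each genotype has 1 library. Nothing could be left out for the same reason, and TPM gives no depth, so no interval was computed.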
